A study of Mus musculus with 36 samples.

Results

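Skin transcripts were examined in bulk RNA-seq of subcutaneous mouse tumors, and the libraries were split by their level of Krt14, the keratin of the basal layer of the epidermis. Of 36 tumor libraries, 35 were compared, because PancO2 anti-PD-1 71 was left out. In 11 of them Krt14 was above 1 CPM (a gene's count over all counts assigned to genes in that library, scaled to 1e6), and these are called side A. In the other 24 libraries it was at most 1 CPM, and these are called side B. The libraries were thus selected on Krt14, so the levels of Krt14 and of the epidermal genes that came with it are given as a description and not as tested findings.

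Wild-type mice labelled as 12 weeks old carried subcutaneous MC38 colon, CT26 colon or PancO2 pancreatic tumors and received 10 mg/kg of control IgG, anti-CTLA4 or anti-PD-1 intraperitoneally. MC38 and PancO2 were labelled as grown in C57BL/6J mice and CT26 in BALB/c mice. Each of the 9 groups held 4 libraries, each with its own mouse number, and each line is 1 cell line grown in the right flank of female hosts, so the groups model transplanted and not spontaneous tumors. RNA was extracted from whole tumor tissue taken at the end of the experiment, and the methods state that mice with ulcerated subcutaneous tumors were killed.

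The labels were checked against the data before any comparison. H2-Ea-ps, a major histocompatibility complex (MHC) gene that is transcribed in BALB/c and not in C57BL/6 mice, went against the labelled strain in 16 of 36 libraries, of which 6 were among the 11 of side A and 9 among the 24 of side B. Every library name below is therefore only its label and mouse number. Expression class was used in place of the labels and entered the fits as a term: H2-Ea (H2-Ea-ps above 10 CPM), Cp-high (the ceruloplasmin gene Cp above 1000 CPM), or neither. Total counts ran from 23709709 to 35651117 in side A and from 11821687 to 41751023 in side B, so that 3 counts, the smallest level given any weight here, stood for 0.0719 to 0.254 CPM depending on the library.

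The epidermis is a stratified epithelium. Basal keratinocytes make the keratin pair Krt5 and Krt14, switch to Krt1 and Krt10 as they move up, and end as cornified cells that lay down loricrin, hornerin and small proline-rich proteins, while wounded or rapidly dividing epidermis makes Krt6, Krt16 and Krt17. The hair follicle has its own keratins, such as Krt25, Krt27, Krt28 and Krt71 with trichohyalin (Tchh) in the inner root sheath. Skin also holds Langerhans cells, resident T cells, mast cells, fibroblasts, fat and muscle, which is why overlying skin taken with a tumor could add to immune and stromal markers.

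The keratins that carried the pattern lie in the 2 keratin clusters of the mouse genome (GENCODE vM21, GRCm38). Krt14 (ENSMUSG00000045545) spans chr11:100203162-100207548 beside Krt16 and Krt17, and Krt25 and Krt27 lie in the same cluster. Krt5 spans chr15:101707070-101712898 beside Krt6a, Krt6b, Krt71 and Krt1. The 150 bases before the RefSeq start (GRCm38.p6, minus strand in each case) are shown for 4 genes of the programs described below: Krt5 of basal keratinocytes, Sprr1a of cornifying and wounded epithelium, and Krt71 and Krt25 of the inner root sheath. Krt71 and Krt25 set the libraries with follicle keratins apart, whereas Sprr1a did not, at 36.2 CPM in PancO2 IgG 48, 12.2 in MC38 anti-PD-1 17, 11.1 in CT26 anti-PD-1 46 and 3.40 in CT26 IgG 29. Capitals mark matches on either strand to TATAAA or to TGANTCA, the letters of an AP-1 site.
Krt5, chr15:101712906-101713055: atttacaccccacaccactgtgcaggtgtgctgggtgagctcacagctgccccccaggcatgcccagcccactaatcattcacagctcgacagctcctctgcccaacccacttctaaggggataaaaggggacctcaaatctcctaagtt
Sprr1a, chr3:92485882-92486031: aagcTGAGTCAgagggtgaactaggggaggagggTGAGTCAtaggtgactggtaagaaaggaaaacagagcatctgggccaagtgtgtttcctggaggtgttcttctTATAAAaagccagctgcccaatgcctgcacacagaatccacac
Krt71, chr15:101743098-101743247: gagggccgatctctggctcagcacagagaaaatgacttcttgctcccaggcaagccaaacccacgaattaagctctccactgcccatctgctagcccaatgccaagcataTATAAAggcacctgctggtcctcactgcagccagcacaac
Krt25, chr11:99322952-99323101: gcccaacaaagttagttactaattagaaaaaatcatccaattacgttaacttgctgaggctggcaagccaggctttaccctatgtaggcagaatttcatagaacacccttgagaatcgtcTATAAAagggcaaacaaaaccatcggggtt

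Sprr1a held 2 AP-1 matches and a TATA match, Krt71 and Krt25 held a TATA match each, and the Krt5 window held none of the searched letters. Of the 33 genes higher in side A (below), 20 had an entry in the promoter table. TGANTCA was found in 5 of those 20 (Chit1, Clca3a2, Dmkn, Serpinb5 and Sprr1a) and in 4.24% of all 32851 windows of this length, TATAAA in 4 of 20 and 7.57%, and GCCNNNGGC, the letters of an AP-2 site, in 4 of 20 and 9.61%. The 3 motifs were searched on both strands and can overlap, and a match is a run of letters, not a bound site.

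Krt14 spanned more than 2 orders of magnitude within side A. PancO2 IgG 48 held 209.8 CPM (7479 counts) and stood far above every other library. CT26 IgG 29 held 46.3 CPM, PancO2 IgG 49 held 19.5, MC38 anti-PD-1 17 held 8.08 and MC38 anti-CTLA4 11 held 6.13 CPM. The lower 6 libraries of side A were CT26 anti-CTLA4 36 at 3.79, CT26 anti-PD-1 46 at 2.13, CT26 anti-CTLA4 32 at 1.93, CT26 IgG 24 at 1.67, MC38 anti-PD-1 19 at 1.37 and CT26 anti-PD-1 40 at 1.23 CPM. Just under the threshold lay MC38 IgG 2 with 0.911 CPM (28 counts) and MC38 anti-CTLA4 10 with 0.812 CPM (21 counts), so the threshold cut through a continuous run of values. Side B ranged from 0 to 0.911 CPM with a median of 0.0715.

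Krt5, the partner of Krt14, was not used to choose the libraries and did not follow it everywhere. It was above 1 CPM in 8 of the 11 libraries of side A, from 1.23 CPM in CT26 anti-CTLA4 32 to 108.0 CPM in PancO2 IgG 48, and in none of side B, where CT26 IgG 28 was highest at 0.658 CPM. In CT26 IgG 24, MC38 anti-PD-1 19 and CT26 anti-PD-1 40 not a single Krt5 read was counted, and Krt1, Krt6a, Krt6b and Dsg1a were at 0 in the same 3 libraries. The label of skin was therefore not borne out by defining epidermal genes in 3 of the 11 libraries, and side A is named by its rule and not by a tissue.

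**Figure D1:**
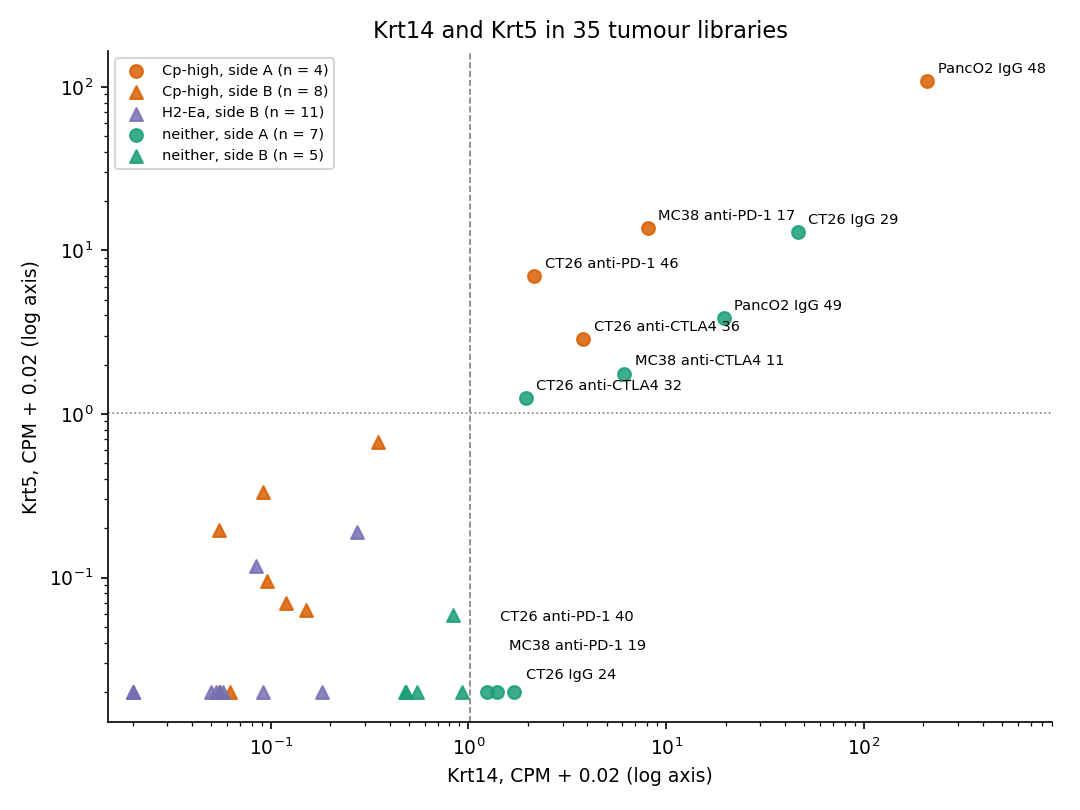
Krt14 (x axis) and Krt5 (y axis) in 35 tumor libraries, each as CPM plus 0.02 on log axes. Circles are the 11 libraries of side A and triangles the 24 of side B, colors give the expression class, and dashed and dotted lines mark 1 CPM. Of side A, 8 libraries lie above the dotted line, and 3 of the neither class lie at a Krt5 of 0, next to side B libraries of their own class.

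The low Krt14 values went with expression class. In the neither class, 5 side B libraries held 0.458 to 0.911 CPM of Krt14 with Krt5 at 0 in 4 of them, and the 3 side A libraries without Krt5 reads, all of this class, held 1.23 to 1.67 CPM. The 8 Cp-high libraries of side B held 0.0347 to 0.329 CPM and the 11 H2-Ea libraries, all of side B, 0 to 0.254 CPM.

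Whether the sides fell unevenly over the groups was asked with Fisher's exact test (two-sided). Side A held 4 of 12 IgG, 3 of 12 anti-CTLA4 and 4 of 11 anti-PD-1 libraries (exact p = 0.903), and 6 of 12 CT26, 3 of 12 MC38 and 2 of 11 PancO2 libraries (exact p = 0.281). Both tests used the labels, which the strain check went against in 16 of 36 libraries. They therefore cannot show whether side A fell evenly over treatments or models. By expression class it held 4 of 12 Cp-high, 0 of 11 H2-Ea and 7 of 12 libraries of neither class, which is a description, since the rule used both the Krt14 threshold and the class thresholds. With sides set by Krt5 above 1 CPM the class counts were 4 of 12, 0 of 11 and 4 of 12, an alternative chosen after the data were seen.

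Across 17114 genes tested between the sides with a term for class, 33 were higher (0.193%) and 1 was lower (0.00584%) in side A by edgeR's quasi-likelihood test at an adjusted p below 0.05. An unadjusted p below 0.05 was held by 790 of the 17114 genes in either direction, the count to set beside those of single lists below. The median log2 fold change over all genes tested was -0.004. Scaling of the libraries in the fit tends to center the sides, so this value does not show that they were alike. Of the genes that were higher, 20 belonged to 29 marker lists with 355 distinct genes, of which 350 were in the table, and 13 lay outside them. Epidermal lists held 19 of the 20 (of 38 genes tested), the hair follicle and sebaceous lists 1 (of 13), and the immune lists (106 tested), the stromal lists (69) and the remaining lists (38) none. Krt14 itself is counted among the 33, the 20 and the 19. Because the libraries were chosen by Krt14, the epidermal share describes what comes with it. Adjusted p-values printed below for epidermal genes are part of that description and carry no weight as tests. The counts for the immune and stromal lists are the ones that the choice did not fix.

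**Figure D2:**
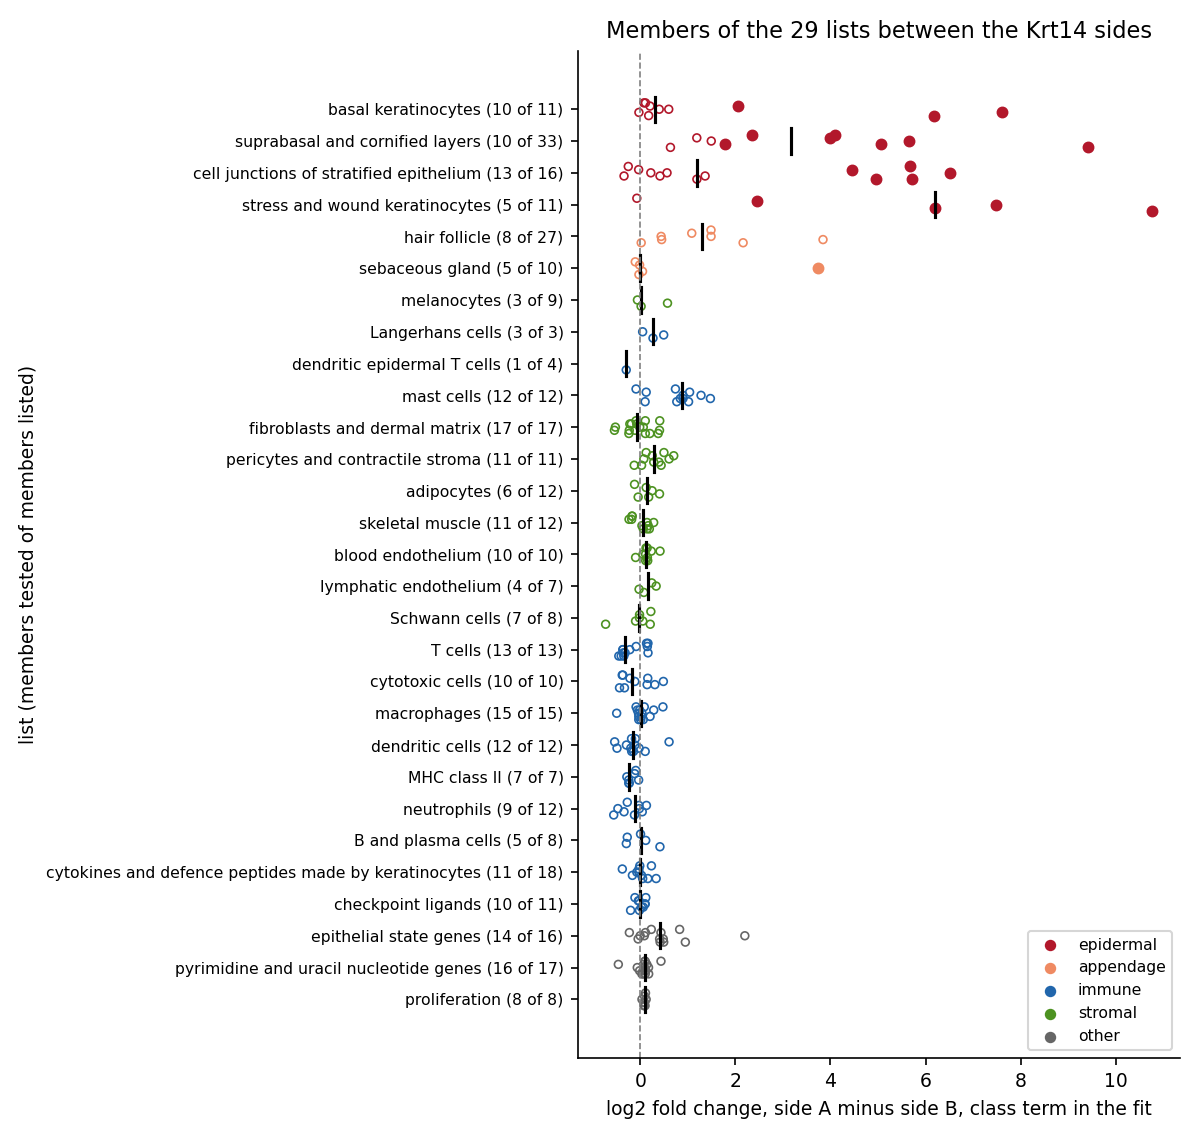
Log2 fold change (side A minus side B, class term in the fit) of each tested member of the 29 lists, with filled points for genes at an adjusted p below 0.05, short black lines for list medians, and a dashed line for the median of all genes tested. Epidermal lists reach above 10, whereas immune and stromal members lie between -0.73 and 1.48 with no filled point.

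Basal keratinocyte genes moved only in part. Apart from Krt14, which set the sides, 2 of the 9 members tested were higher, Krt5 and Col17a1, the collagen of hemidesmosomes (median log2 fold change 0.21 without Krt14 and 0.30 with it). Col17a1 ran from 0.859 to 30.6 CPM in side A and from 0.456 to 1.97 CPM in side B, and its log2 difference was 2.06 ± 0.35 (SE; adjusted p = 0.00142). Its sides overlapped. Itga6 and Itgb4, the integrins of the same structure, did not pass, at 0.11 ± 0.11 and 0.18 ± 0.18 on the log2 scale, and both were well expressed in side B, with medians of 392.9 and 134.4 CPM. Trp63, the master factor of stratified epithelium, read 0.60 ± 0.26 (adjusted p = 1.0).

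Suprabasal and cornified-layer genes made up the broadest group, with 7 of 10 tested members higher (Krt1, Krt10, Dmkn, Cnfn, Klk7, Aqp3 and Lgals7; median 3.17). Another 21 members in the table were too low for the test, and 20 of these passed 1 CPM in at least 1 library of side A and in none of side B. The same share over all genes too low for the test was not counted, so this is a description. Krt1 was at 126.3 CPM in PancO2 IgG 48, 17.45 in CT26 IgG 29, 12.8 in MC38 anti-PD-1 17, 10.7 in MC38 anti-CTLA4 11, 8.75 in CT26 anti-CTLA4 36 and 7.38 in PancO2 IgG 49. The remaining 5 libraries of side A held at most 0.669 CPM and side B at most 0.139, so Krt1 marked 6 of the 11 libraries. Krt10 had a floor of 2.39 to 4.77 CPM in side B and rose to 73.0 CPM in PancO2 IgG 48 and 15.8 in MC38 anti-PD-1 17 (log2 difference 1.79 ± 0.31, adjusted p = 0.00142). Dmkn (dermokine, secreted by upper keratinocytes) reached 51.9 CPM in PancO2 IgG 48 and was at most 0.482 in side B. Calm4 (70.3), Krtdap (35.1), Krt77 (23.6), Lor (15.8) and Hrnr (10.5 CPM), which are made in the upper layers and are named after their values were seen, were too low elsewhere to be tested and were highest in PancO2 IgG 48.

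Lgals7, a galectin of stratified epithelium, did not separate the sides by itself. It was 52.0 CPM in PancO2 IgG 48 but up to 118.8 CPM in side B, in CT26 anti-CTLA4 34 of the H2-Ea class. Its log2 difference of 2.35 ± 0.50 (adjusted p = 0.0247) thus rested on the class term, and without that term it was -2.49. Cnfn did not separate the sides by itself either. It held 355 counts in PancO2 IgG 48 and at most 24 elsewhere in side A, but 254 in CT26 anti-CTLA4 34 and 99 in PancO2 anti-PD-1 64 of the H2-Ea class.

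Of 13 tested genes of desmosomes, gap junctions and tight junctions, 5 were higher. On the log2 scale they were desmoplakin Dsp (4.96 ± 0.68) and the desmosomal cadherins Dsg1a (5.66 ± 0.74) and Dsc3 (6.52 ± 0.77). The others were the desmosome protein Perp (4.44 ± 0.62) and the connexin Gjb2 (5.71 ± 0.83). These values describe what came with Krt14, and Dsc3 had at most 4 counts in any library of side B, so its fold is uncertain. Dsp read 57.9 CPM in PancO2 IgG 48, 14.2 in CT26 IgG 29, 10.7 in MC38 anti-PD-1 17, 8.49 in CT26 anti-PD-1 46 and 6.71 in PancO2 IgG 49, and side B reached 1.75 CPM in CT26 IgG 28. Jup (plakoglobin), which many cell types make, was abundant on both sides, with medians of 126.9 and 80.7 CPM and a log2 difference of -0.03 ± 0.10, and Cldn1 did not pass either (-0.25).

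Wound and stress keratins were the steepest group, with 4 of 5 tested members higher (Krt6a, Krt16, Krt17 and Sprr1a). Sprr1a did not separate the sides by itself. It held 332 counts in PancO2 anti-PD-1 70 and 135 in PancO2 anti-PD-1 68 of side B, against 100 in CT26 IgG 29 of side A. Krt6a read 112.8 CPM in PancO2 IgG 48, 26.6 in CT26 IgG 29 and 8.01 in PancO2 IgG 49, 0.993 to 2.34 CPM in MC38 anti-CTLA4 11, MC38 anti-PD-1 17, CT26 anti-PD-1 46 and CT26 anti-CTLA4 36, and at most 0.0744 in the other 4. Side B held at most 0.0647 CPM, within the level of 3 counts, so a fitted fold change for Krt6a would depend on the prior count and is not printed. Krt16 followed with 100.1, 19.4 and 7.76 CPM in the same 3 leading libraries. Krt17 was 61.2 CPM in PancO2 IgG 48 and next highest in MC38 anti-PD-1 17 (5.89) and CT26 IgG 29 (5.47). By default the counting tool sets aside reads that map to several places, and Krt6a shares 57.2% of its 50-base windows with other genes (chiefly Krt6b), Krt16 37.6%, Krt14 13.9% and Krt1 0.0%, so the levels of Krt6a, Krt6b and Krt16 are uncertain.

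The hair follicle list showed a second kind of material, which Krt14 did not rank. Of its 26 members in the table, 22 had MC38 anti-PD-1 17 and CT26 anti-PD-1 46 as their 2 highest libraries. How many of all genes had this pair on top was not counted. Krt71 was 40.97 CPM in CT26 anti-PD-1 46 and 29.1 in MC38 anti-PD-1 17, against 0.0280 in PancO2 IgG 48 and 0 in CT26 IgG 29 and PancO2 IgG 49. Tchh, which hardens the inner root sheath, was 87.0 and 90.2 CPM in the first 2 and 0.561 CPM in PancO2 IgG 48. Krt27 (13.9 and 9.52 CPM) did the same, as did the hair shaft genes Krt83 (3.09 and 4.41) and Krtap8-1 (4.53 and 5.85).

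A library of side B carried the same genes at a lower level. CT26 IgG 28 (Krt14 0.329 CPM) held 5.70 CPM of Krt71, 15.02 of Tchh and 2.91 of Krt25, above 9 of the 11 libraries of side A for each, and PancO2 anti-PD-1 68 (Krt14 0.0350 CPM) held 1.61, 2.62 and 0.804 CPM. CT26 IgG 28 was also the highest library of side B for Krt5, Dsp (1.75 CPM) and Perp (1.92). All 4 libraries with follicle keratins were of the Cp-high class. The melanocyte enzymes Dct and Tyrp1 were above 0.7 CPM only in MC38 anti-PD-1 17 (2.11 and 1.76) and CT26 anti-PD-1 46 (1.47 and 0.780) of the 35 libraries.

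Summed over 10 epidermal and 7 follicle genes the libraries separated in both directions. The epidermal sum was 673.4 CPM in PancO2 IgG 48, 113.5 in CT26 IgG 29 and 6.57 in CT26 anti-PD-1 46, and the follicle sum was 0.898, 0.170 and 174.9 CPM in the same libraries. MC38 anti-PD-1 17 held both, at 43.6 and 162.2 CPM. The Krt5 to Krt14 count ratio moved along, at 3.27 in CT26 anti-PD-1 46 and 1.69 in MC38 anti-PD-1 17 and between 0.197 and 0.754 in the other 6 libraries with both genes above 1 CPM. Krt1, which marks interfollicular epidermis, was 0.0600 CPM in CT26 anti-PD-1 46.

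**Figure D3:**
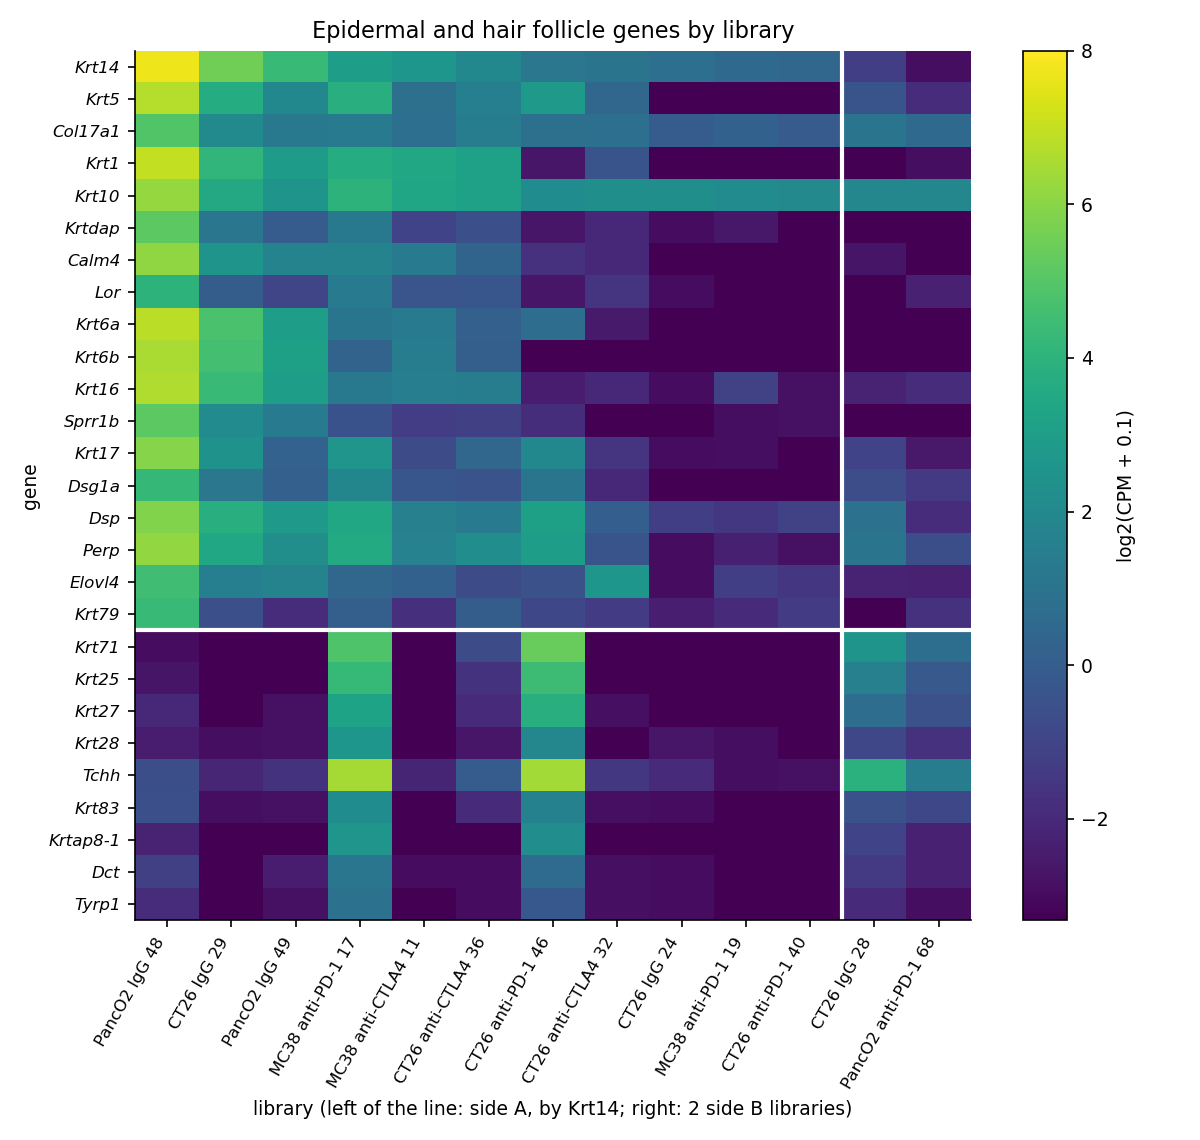
Levels of 18 epidermal and sebaceous genes (above the horizontal line) and 9 hair follicle and melanocyte genes (below it) as log2(CPM + 0.1) in the 11 libraries of side A, ordered by Krt14, and in 2 libraries of side B to the right of the vertical line. PancO2 IgG 48, CT26 IgG 29 and PancO2 IgG 49 are bright only above the line, MC38 anti-PD-1 17 on both sides of it, and CT26 anti-PD-1 46 with CT26 IgG 28 mainly below it.

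Between the sides none of the 8 tested follicle members passed, although 5 had an unadjusted p below 0.05, all higher in side A (median 1.29; Krt83 2.16 ± 0.51, adjusted p = 0.0649; Tchh 3.84 ± 0.91, adjusted p = 0.0765). Sox9, a follicle factor that was abundant on both sides, with a median of 109.0 CPM in side B, read 0.02 ± 0.13. The sebaceous list had 1 member higher of 5 tested, Elovl4, a very-long-chain fatty acid elongase (3.73 ± 0.71, adjusted p = 0.00682). Elovl4 was 22.7 CPM in PancO2 IgG 48 and 5.99 CPM in CT26 anti-CTLA4 32, a library with little Krt1 or Krt6a, and at most 0.865 CPM in side B. Krt79 of the sebaceous duct was 19.5 CPM in PancO2 IgG 48 and at most 0.976 elsewhere in side A.

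Outside the lists 1 gene met the rule for being named, Cyhr1, the single gene that was lower in side A. It differed by -0.19 ± 0.04 (adjusted p = 0.0162) at 38.1 to 59.0 CPM in side A and 37.6 to 73.4 in side B, and the sides overlapped almost fully. The 13 genes that were higher were too weakly expressed for the rule, and those named here were chosen after their values were seen. Trim29 (4.64 ± 0.61), Serpinb5 (4.32 ± 0.64), Lad1, S100a14 and Rab25 are genes of stratified or other epithelia, and each was highest in PancO2 IgG 48. Lypd5, Chit1 and Crym were above 1 CPM in at least 1 library of side B, and Clca3a2, Efs and Scn3a reached at most 4.40, 1.52 and 2.10 CPM anywhere in side A.

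Setting the sides by Krt5 above 1 CPM (8 against 27 libraries) moved the 3 libraries without Krt5 reads to the other side. Of 17331 genes tested, 76 were then higher (0.439%) and 2 lower (0.0115%), and 32 of the 34 genes of the Krt14 sides were among them, without Efs and Scn3a. Epidermal lists held 30 of 46 tested and the hair follicle and sebaceous lists 6 of 15, now with Krt83, Tchh, Foxn1, S100a3, Elovl4 and Krt79. Of the immune (106 tested) and stromal lists (71) again none passed, and of the remaining lists Cldn4, a tight-junction claudin, did (2.65, adjusted p = 0.00372). Epithelial regulators not in any list, such as Grhl1 and Zfp750, with Sfn and Evpl of the cornified layers, were among the added genes.

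T cell genes, which skin-resident T cells could raise, gave no call in either split. Cd3e, a chain of the T cell receptor complex, ran from 0.614 to 16.3 CPM in side A (median 8.06) and from 2.35 to 22.8 in side B (median 6.85), with a log2 difference of -0.45 (95% interval -1.13 to 0.23). Cd8a read -0.35 (-1.05 to 0.36), Foxp3 of regulatory T cells 0.15 (-0.22 to 0.52) and Pdcd1, which encodes PD-1, -0.40 (-1.10 to 0.30). The 13 members had a median of -0.32 between the Krt14 sides and 0.25 between the Krt5 sides, so even the sign of the list median depended on the 3 libraries without Krt5. In bulk RNA, fewer cells of a type and less RNA per cell cannot be told apart, here and for each cell type below.

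Among macrophage genes, 3 abundant markers were tightly bounded. Adgre1, the F4/80 antigen, read 0.02 (-0.23 to 0.28), Cd68 0.01 (-0.16 to 0.18) and Csf1r, the receptor of the macrophage growth factor, 0.04 (-0.21 to 0.28), at medians of 93.0 and 77.5, 86.1 and 75.4, and 270.3 and 209.0 CPM in sides A and B. The 15 members had a median of 0.01, and others had wider intervals, such as Nos2 at -0.50 (-1.38 to 0.39), Folr2 at 0.48 (-0.13 to 1.08) and Cd163 at -0.03 (-0.77 to 0.71). Differences beyond 0.3 on the log2 scale fell outside the intervals of Adgre1, Cd68 and Csf1r.

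Dendritic cell and antigen presentation genes were less well bounded. Flt3, the receptor that supports dendritic cells, read -0.49 (-0.96 to -0.02) and Xcr1 of cross-presenting dendritic cells -0.54 (-1.14 to 0.07), neither past the adjusted threshold (both 1.0). H2-Aa, an MHC class II chain, spanned 19.3 to 1625 CPM in side A and 16.6 to 1603 in side B, and its interval reached from -1.10 to 0.61. All 7 MHC class II members were below 0 between the Krt14 sides (median -0.23), and the median was 0.37 between the Krt5 sides.

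Neutrophil genes, of which S100a8 and S100a9 are also made by stressed keratinocytes, did not differ at this spread. S100a8 read -0.12 (-1.01 to 0.76) and S100a9 0.04 (-0.92 to 1.004), and the highest library for both was MC38 IgG 2 of side B (66.4 and 110.2 CPM). Cxcr2, a chemokine receptor of neutrophils, read -0.02 (-0.35 to 0.31). Cd274, which encodes PD-L1 and the ligand of the receptor that anti-PD-1 blocks, read -0.20 (-0.74 to 0.34), and the 10 tested checkpoint ligands had a median of 0.00.

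**Figure D4:**
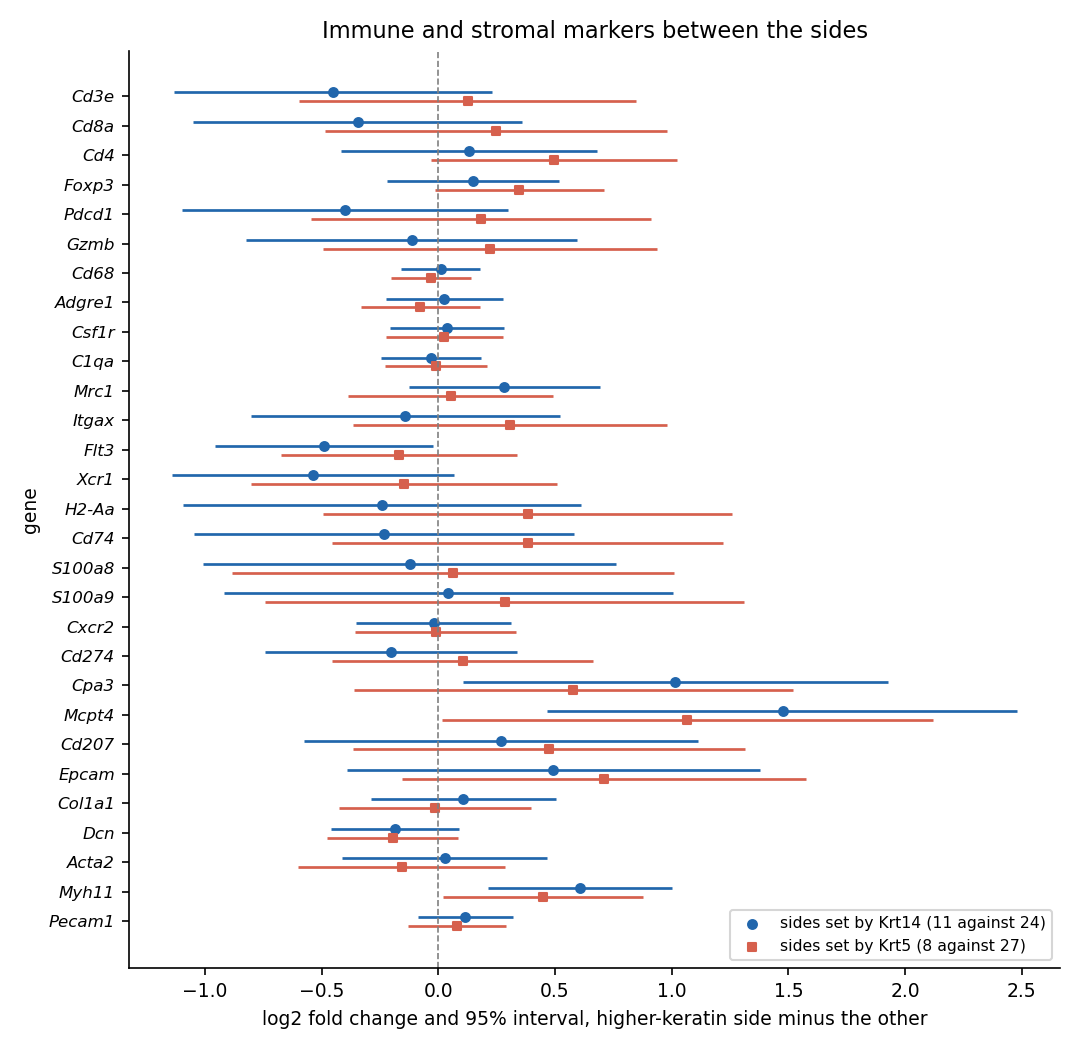
Log2 fold change with 95% interval of 29 immune and stromal markers between the Krt14 sides (circles, 11 against 24 libraries) and between the Krt5 sides (squares, 8 against 27), with a term for class in each fit. Cd68, Adgre1 and Csf1r have narrow intervals around 0, Cd3e, H2-Aa and Cd274 change sign between the splits with intervals that include 0, and Cpa3 and Mcpt4 lie to the right without passing the adjusted threshold.

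Mast cell genes were the immune list with the largest median, 0.87 against -0.004 over all genes tested. All 12 were tested, 11 were above 0, and 6 had an unadjusted p below 0.05, all higher, but none passed the adjusted threshold. Over all genes 790 of 17114 had an unadjusted p below 0.05 in either direction. Mcpt4, a protease of connective tissue mast cells, read 1.48 (0.47 to 2.48, adjusted p = 0.735), Cma1 1.28 (0.32 to 2.23) and Cpa3 1.02 (0.11 to 1.93). Mcpt4 was 27.97 CPM in PancO2 IgG 48 but 0.196 to 6.57 CPM in the other 10 libraries of side A, and side B reached 18.02 CPM. The list median was 0.59 between the Krt5 sides, and Kit and Gata2, which other cells share, read 0.10 and 0.13.

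Langerhans and resident epidermal T cell genes were weakly expressed. Cd207, which encodes langerin, was 1.85 CPM in PancO2 IgG 48, its highest value in the 35 libraries, and 0 to 0.468 CPM elsewhere in side A, whereas side B reached 1.31 CPM. Its log2 difference was 0.27 (-0.58 to 1.11). The single testable gene of dendritic epidermal T cells, Tcrg-C1, read -0.30 (-1.21 to 0.62) at no more than 1.29 CPM in any library.

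Stromal lists gave no call. Contractile stroma had 5 of 11 members at an unadjusted p below 0.05, all higher (median 0.28), led by Myh11, the smooth muscle myosin heavy chain (0.61, 0.21 to 1.003, adjusted p = 0.640), with Tagln, Rgs5, Postn and Myl9. Myh11 ran from 1.61 to 5.11 CPM in side A and from 1.06 to 3.56 in side B and was highest in CT26 IgG 24, a library without Krt5 reads. Fibroblast genes had a median of -0.07, with Col1a1 at 0.11 (-0.29 to 0.50) and Dcn at -0.19 (-0.46 to 0.09). Pecam1 of endothelium read 0.12 (-0.09 to 0.32), the adipocyte hormone gene Adipoq 0.18 (-0.85 to 1.20) and Acta1 of skeletal muscle 0.19 (-1.44 to 1.82). Acta1 ran from 0.0325 to 234.9 CPM within side B. Medians were 0.15 for adipocytes, 0.06 for skeletal muscle, 0.13 for blood endothelium, 0.16 for lymphatic endothelium, -0.02 for Schwann cells and 0.02 for melanocytes.

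Cytokines and defence peptides that keratinocytes can make also gave no call among 11 tested (median -0.01). Il33, an alarmin, was 309.4 CPM in PancO2 IgG 48 and 2.91 to 237.1 in the rest of side A, Il1rn read -0.07 ± 0.33 and Cxcl14 -0.03 ± 0.21. Another 7 members were too low to test, of which 4 passed 1 CPM only in side A, a count without a share over all untested genes beside it. In PancO2 IgG 48, Il1f5 stood at 4.07, Defb6 at 3.87, Defb1 at 2.72 and Il1f8 at 1.57 CPM, and each was at most 0.0759 CPM in side B. Epithelial state genes had a median of 0.41 with 5 of 14 at an unadjusted p below 0.05, and the keratins of simple epithelia, Krt8 (0.11 ± 0.25) and Krt18 (0.23 ± 0.31), did not pass. Genes of pyrimidine and uracil nucleotide handling had a median of 0.09 with none called of 16, Cda at 0.03 (-0.32 to 0.39) and P2ry6 at 0.06 (-0.14 to 0.26). The 8 proliferation genes had a median of 0.09, the 5 tested B and plasma cell genes 0.01 and the 10 cytotoxic genes -0.17.

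PancO2 IgG 48, the library with the most skin transcripts, was set against the other 11 libraries of its Cp-high class as a description, since 1 library allows no test. Of the 17114 genes tested, 10.5% were above 1 CPM and higher in it than in each of the 11. Neutrophil members were among them in 5 of 9 cases (S100a8, S100a9, Cxcr2, Csf3r and Il1b), mast cell members in 5 of 12, epithelial state members in 7 of 14, contractile stroma members in 5 of 11, adipocyte members in 3 of 6 (Adipoq, Fabp4 and Cfd), macrophage members in 3 of 15 (Mrc1, Arg1 and Folr2) and T cell, cytotoxic and MHC class II members in 0 of 13, 0 of 10 and 0 of 7. S100a8 was 39.4 CPM against 14.1 in the next highest of the class, S100a9 63.1 against 20.3, Mcpt4 27.97 against 8.79, and Cxcr2 17.3 against 9.76. Of the macrophage genes, Mrc1, which encodes the mannose receptor CD206, was 95.1 CPM against 74.5 and Folr2 7.80 against 3.95, while Arg1 was 134.6 against 131.2.

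Summed over their lists the same library ranked highest of the 12 for neutrophils (268.6 CPM against 63.1 to 136.8), mast cells (211.5 against 38.6 to 177.8), Langerhans cells (6.87 against 0.621 to 4.18), adipocytes (57.8 against 23.0 to 51.5), lymphatic endothelium (41.5 against 15.2 to 31.9) and keratinocyte cytokines (474.8 against 287.6 to 393.9). In some of these sums 1 gene made up most of the total. Il33 held 309.4 CPM of the keratinocyte cytokine sum, and it reached 275.2 CPM elsewhere in the class. Epcam, which epithelial cells also make, held 4.38 CPM of the Langerhans sum, against 1.85 for Cd207, and Pdpn, which keratinocytes and fibroblasts also make, held 32.3 CPM of the lymphatic sum. For T cells it ranked 5, for macrophages and cytotoxic cells 8, and for dendritic cells and MHC class II 9 of the 12. The other side A libraries did not share this order. CT26 IgG 29, second in Krt14, was above 1 CPM and highest of the neither class for 2.96% of all genes, for 8 of 10 cornified-layer members and 4 of 5 wound members, and for none of the neutrophil, T cell, macrophage or MHC class II members. MC38 anti-PD-1 17 was highest of the Cp-high class for 3.45% of all genes, for 6 of 12 mast cell members and for 5 of 13 T cell members (Cd2, Cd4, Foxp3, Ctla4 and Icos). It was also highest for 3 of 7 MHC class II members (H2-Aa, H2-Eb1 and Cd74) and 3 of 15 macrophage members (C1qa, C1qc and P2ry6). None of the neutrophil or dendritic cell members was highest in it. PancO2 IgG 49 was highest of the neither class for 13.6% of all genes, against 10.5% for PancO2 IgG 48 in its class. These included 3 of 13 T cell members (Foxp3, Ctla4 and Icos) and 3 of 10 cytotoxic members. MC38 anti-CTLA4 11 reached 4.5% in the neither class, with 2 of 13 T cell and 4 of 15 macrophage members. CT26 anti-PD-1 46 reached 6.49% in the Cp-high class, with no T cell, neutrophil, mast cell or macrophage member. The part of skin in these levels was not tested.

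**Figure D5:**
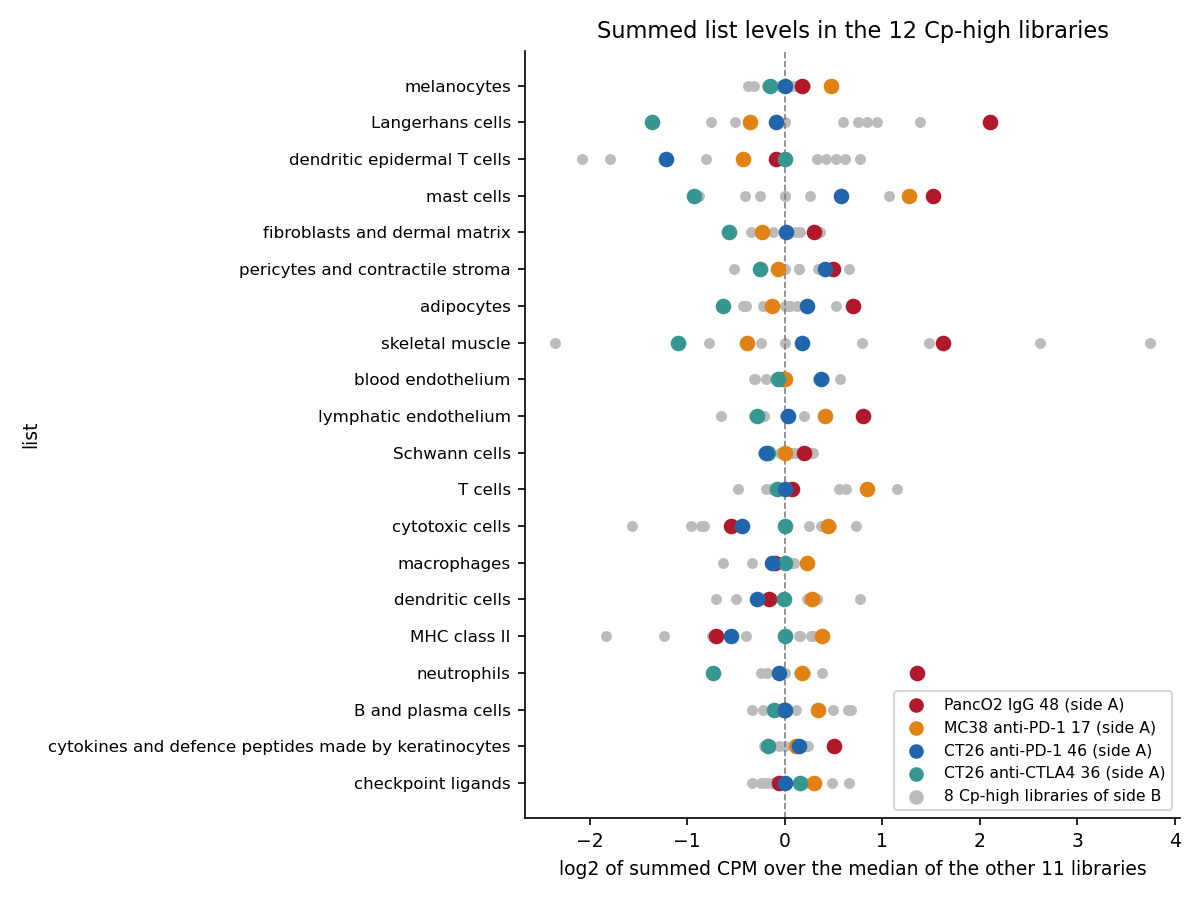
Summed CPM of each immune and stromal list in the 12 Cp-high libraries, as log2 of the ratio to the median of the 11 libraries other than PancO2 IgG 48. Large colored points are the 4 libraries of side A and small gray points the 8 of side B. PancO2 IgG 48 is farthest to the right for neutrophils, mast cells, Langerhans cells, adipocytes, lymphatic endothelium and keratinocyte cytokines, and lies left of the dashed line for macrophages, dendritic cells, cytotoxic cells and MHC class II.

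The calls depended on the class term. Without it, 182 of 16426 genes tested were higher (1.11%) and 896 lower (5.45%) in side A, and 9 of the 34 genes called with the term were among them. Of the immune lists, Prf1 (perforin; -1.89, adjusted p = 0.0344) and the antimicrobial S100a7a (-3.47, adjusted p = 0.0165) then became lower and Cd79a of the B cell receptor higher (1.23, adjusted p = 0.0254), with Postn and Pmel higher among stromal lists. With the term the same genes read -0.33, 0.33, 0.41, 0.70 and 0.57 and none passed.

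Whether genes went with Krt14 differently in the Cp-high and neither classes was tested with an interaction term. None of 17163 genes passed (0.0%) by edgeR's quasi-likelihood test, 573 had an unadjusted p below 0.05, and the smallest adjusted p was 0.101. Within the Cp-high class alone (4 against 8) 10 genes were higher and 1 lower, and within the neither class (7 against 5) none was, with 347 at an unadjusted p below 0.05, the H2-Ea class having no library in side A.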

How the data were processed

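Poly-adenylated RNA of whole tumors was converted to libraries with the Illumina TruSeq kit V2. The authors mapped reads to GRCm38/mm10 with TopHat and Bowtie2 and deposited raw counts per Ensembl gene from HTSeq 07.2 (FastQC 0.11.5, in the submitters' processing notes). The Ensembl release and the strand setting are not given in the sources used here. The summary lines that name no gene held 44.8 to 63.4% of each column and were removed, and CPM was each count over the column sum. The members and lists were chosen with earlier results of these data known. Genes were tested with edgeR 4.0.16 (R 4.3.3) on the counts: filterByExpr, TMM, robust quasi-likelihood fits with side and class, and Benjamini-Hochberg adjustment over all genes tested. This fit was chosen for counts, where the methods name limma. DESeq2 1.42.0 and limma 3.58.1 served as alternatives, Fisher's exact tests were run in R, and levels were tabulated in Python 3.11.15. Scripts were tested on simulated data. Named genes were Krt14 and list members, led by those first listed and those called with the largest change (up to 6 per list), and outside the lists up to 15 genes per direction with an adjusted p below 0.05 and a mean of at least 5 CPM on the higher side. Of 360 list entries, Flg, Lce1d, Krt85, Trdc and Ccl21a had no match in the table, and results for some genes are not reported here. Mouse numbers differ between all libraries, and p-values measure the spread between these libraries.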

Additional observations from a re-analysis of the deposited data

Results flagged for a closer look

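Within labelled groups of 4 libraries, 6 skin genes (Krt14, Krt5, Krt1, Krt6a, Krt71 and Tchh) were checked for a library far from the other 3 on the log2(CPM + 0.1) scale, in 28 combinations of gene and group with a library above 1 CPM. In 16 of them 1 library stood apart by Dixon's 95% criterion, and the same 5 libraries accounted for all 16. Chance would pass about 1 in 20 groups, but that rate does not apply here, because groups were taken only where a library was above 1 CPM, the other 3 were often at 0, and the 6 genes come from shared tissue, so the count is a description. CT26 IgG 29 stood apart for Krt1 (17.45 CPM) and Krt6a (26.6), while the other 3 libraries of its group were at 0. CT26 IgG 28 of the same group stood apart for Krt71 (5.70) and Tchh (15.02), so within 1 labelled group the epidermal and the follicle genes singled out different tumors. CT26 IgG 29 was of the neither class and CT26 IgG 28 of the Cp-high class. Labelled groups mixed the classes, and this check took no account of class. CT26 anti-PD-1 46 stood apart for Krt5 (6.96), Krt6a (1.53), Krt71 (40.97) and Tchh (87.0). MC38 anti-PD-1 17 did so for Krt5 (13.6), Krt1 (12.8), Krt6a (2.03), Krt71 (29.1) and Tchh (90.2). MC38 anti-CTLA4 11 did so for Krt5 (1.74), Krt1 (10.7) and Krt6a (2.34).

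PancO2 anti-PD-1 71, left out of every comparison, held 6 counts of Krt14 among 7883106 (0.761 CPM) and no Krt5. The 11 libraries with which it shares the H2-Ea class held 0 to 0.254 CPM.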

How the results depend on the processing

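The 34 genes called between the Krt14 sides became 181 with every gene of at least 1 count, 3 with a stricter filter on low counts (10 counts), 11 with limma-voom, 1078 with no term for class, 57 with class plus labelled model, 64 at Krt14 thresholds of 0.5 and 2 CPM, 92 at 5, 144 at 10, 187 with Krt14 as a number, 78 with sides set by Krt5, 11 in the Cp-high class alone and 0 in the neither class alone. DESeq2 gave 38 and its size factors 34, and 33 had a log2 fold change beyond 1 in size. Chosen after seeing the data, leaving out the 3 side A libraries without Krt5 reads gave 64, leaving out the H2-Ea class 16 and leaving out the 2 libraries highest in Krt14 11, all 11 of them among the 34. Leaving out each library in turn gave 21 (without CT26 IgG 29) to 55 (without CT26 anti-CTLA4 36), with 52 without MC38 IgG 2, and 13 genes were called in all 35 such fits. For the Krt5 sides this range was 55 (without PancO2 IgG 48) to 117 (without CT26 IgG 29), and for the interaction 0 to 2 (without CT26 anti-CTLA4 36). The exact p of side by class, a description since the rule set both, was 0.0110 at 1 CPM and 0.165, 0.332 and 0.758 at thresholds of 2, 5 and 10 CPM and 0.0861 with Krt5. Crym turned to -0.93 at 10 CPM, and Lypd5 (-1.20), Crym (-1.43) and Lgals7 (-2.49) turned without the class term. Of 617 values of 32 called genes under the alternatives, 490 kept direction and call, 123 kept direction only and 4 turned. With class medians removed, list medians fell to 1.31 for cornified layers, 0.51 for junctions, 2.70 for wound keratinocytes and 0.48 for the hair follicle, and the other 25 stayed within the spread. The cause of these changes was not tested. Most called genes had under 1 CPM in side B, where depth limits any fold. No paired analysis was possible because no mouse number occurs in more than 1 group.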
